A study of Mus musculus with 16 samples.

Results

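The oxidative phosphorylation system of mouse macrophages was followed at the mRNA level through its nuclear genes. These are the subunits of complexes I to IV, the subunits of ATP synthase and the complex I assembly factors that share the Nduf name. Members were all genes whose symbol begins with Nduf, Uqcr, Atp5, Cox4, Cox5, Cox6, Cox7 or Cox8, plus Sdha, Sdhb, Sdhc and Sdhd. Of 20659 named genes with a probe on the array, 93 met this rule, with 124 probes. A probe was well above background on all 4 arrays of at least 1 group for 89 of the 93, of 12759 genes measured in all. Cox7b2, Cox8b, Cox8c and Ndufa4l2 did not pass, and Ndufb1, Ndufb4b and Ndufb4c had no named probe. Each gene is represented by its brightest probe. The measured members are 37 complex I subunits, 8 complex I assembly factors, 4 subunits of complex II, 8 of complex III, 15 of complex IV and 17 of ATP synthase.

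RNA came from murine stem cell derived macrophages on 16 two-colour arrays, with 4 independent biological replicates (a to d) per group. Cells had received lipopolysaccharide (LPS, the bacterial wall component that triggers Toll-like receptor 4) at 10 ng/mL for 8 h, heme-albumin at 50 µM for 8 h or heme-albumin at 200 µM for 8 h, and the control cells had no treatment and stood at 0 h. Incubation time therefore cannot be told apart from treatment in any comparison with the control. The sample was labelled with Cy5 and hybridised against untreated reference RNA labelled with Cy3, and the control arrays carried untreated RNA in both colours. The stem cells' origin, strain and sex are not given in the sources used here. The study set out to revisit heme as a possible inflammatory trigger, beside LPS as a known one.

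Complexes I to IV of the mitochondrial inner membrane pass electrons from NADH and succinate through coenzyme Q and cytochrome c to oxygen, and ATP synthase uses the proton gradient they build. Complex I takes electrons from NADH, complex II from succinate, complex III hands them to cytochrome c and complex IV to oxygen. Complex II is also an enzyme of the tricarboxylic acid (TCA) cycle. In macrophages, LPS is known to shift energy metabolism from respiration towards glycolysis, with succinate and its oxidation by complex II as a recognised part of the inflammatory response. Complexes III and IV carry electrons on hemes together with an iron-sulfur cluster or copper centres, and complex II holds a heme beside its flavin and iron-sulfur clusters. Subunits encoded by the mitochondrial genome had no named probe here.

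Between 49.94 and 59.42 percent of the probes on an array were well above background in the red channel, and no spot was saturated. The software's quality check marked 8 arrays for evaluation, namely control a, c and d, 50 µM d, 200 µM a and d, and LPS a and d. Each slide held all arrays of 1 letter. Slides a and b had one scan date, the first day, and slides c and d a later one, the second day. Sample titles also give each letter its own tag, shared by all groups, whose meaning is not stated. Differences between slides or scan days therefore cannot be told apart from differences between tags. A group always took the same place on its slides, so place and treatment cannot be told apart. Hmox1, which degrades heme, changed by 2.65 after LPS, 2.88 at 50 µM and 3.69 at 200 µM on the log2 scale. Il1b, an inflammatory cytokine, rose by 6.74 after LPS and had -0.10 and -0.10 at 50 and 200 µM, neither called. Tnf rose by 4.16, 1.07 and 2.11, and Spic, a macrophage transcription factor induced by heme, by 5.66, 3.26 and 5.78. All 10 macrophage markers measured, among them Adgre1, Csf1r and Lyz2, were well above background on all 4 arrays of each group. In bulk RNA, fewer cells of a type and less RNA per cell cannot be told apart. All values below are log2 ratios of the sample to the reference RNA, and changes are differences between group means of these ratios, given with limma's standard error. Genes were called where limma's Benjamini-Hochberg adjusted p fell below 0.05, whatever the fold.

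After LPS, 53 of the 89 members were called lower and 11 higher than in the control, and 25 were not called. Most changes were small. The median member changed by -0.18, against -0.089 for the median of all 12759 genes, and members ranged from -1.54 to 1.04. Over all genes tested 44.3 percent were called lower and 34.5 percent higher, beside 59.6 and 12.4 percent of the members. The median log2 ratio of the 89 members was -0.13, -0.15, -0.14 and -0.20 on LPS arrays a to d, against 0.051, -0.020, 0.031 and 0.029 on the control arrays. The arrays of the groups did not overlap in this median. The median of all genes separated in the same way, with -0.039, -0.058, -0.10 and -0.11 on the LPS arrays, against 0.0044, 0.022, 0.018 and 0.016 on the control arrays. Among single members, the LPS and control arrays did not overlap for 62 of 89, with 52 lower (58.4 percent) and 10 higher (11.2 percent) after LPS. Over all genes 41 percent lay lower without overlap and 31.3 percent higher. Only Ndufaf7 and Cox6b2 passed 2-fold, a change that 16.7 percent of all genes made downward and 14 percent upward.

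The balance of lower and higher members depended on how the 2 colours were scaled, and 15 of the 53 members called lower had a value above 0 in at least 1 of 5 alternatives. Centring each array on its median gave 39 lower and 16 higher. Correcting the background with normexp and refitting the dye curve by loess gave 28 and 19, and the same without background subtraction 29 and 21. The red channel alone gave 19 lower and 17 higher, and normexp with no dye curve 3 and 4. The last setting put the median of all genes at 0.11, against -0.089 in the deposited ratios, and that of the members at -0.0045. The share of members called lower was above that of all genes in the deposited ratios and after centring (43.8 against 40.6 percent), and below it in the other 4 settings. There it was 31.5 against 40.1 percent with normexp and loess, 32.6 against 40.9 without background subtraction, 21.3 against 37.5 in the red channel alone and 3.37 against 23.4 with no dye curve. The share called higher was below that of all genes in all 6 settings, from 12.4 against 34.5 percent in the deposited ratios to 4.49 against 24.6 with no dye curve. The members' median stayed below that of all genes in each of these 5 alternatives, with -0.095 against -0.0044, -0.046 against -0.027, -0.043 against -0.024, -0.043 against -0.036 and -0.0045 against 0.11. Under the deposited ratios and the first 4 of these alternatives, thus without the setting with no dye curve, 19 members were called lower in every one and 7 higher in every one. The same counts over all genes were not made, here or beside the single complexes below, so these numbers have no background. The 19 are Ndufa4, Ndufa6, Ndufa8, Ndufb2, Ndufb4, Ndufb5, Ndufb10, Ndufb11, Ndufs1, Ndufs7, Ndufaf2, Ndufaf7, Uqcr10, Uqcr11, Uqcrh, Cox7a1, Cox7a2l, Atp5d and Atp5g2. The 7 are Ndufa10, Ndufab1, Ndufs4, Uqcrc2, Cox5a, Cox6b2 and Atp5md. Atp5g1, a gene for the membrane ring of ATP synthase, was the 1 member called in opposite directions, at -0.14 in the deposited ratios and 0.23 in the red channel alone.

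**Figure D1:**
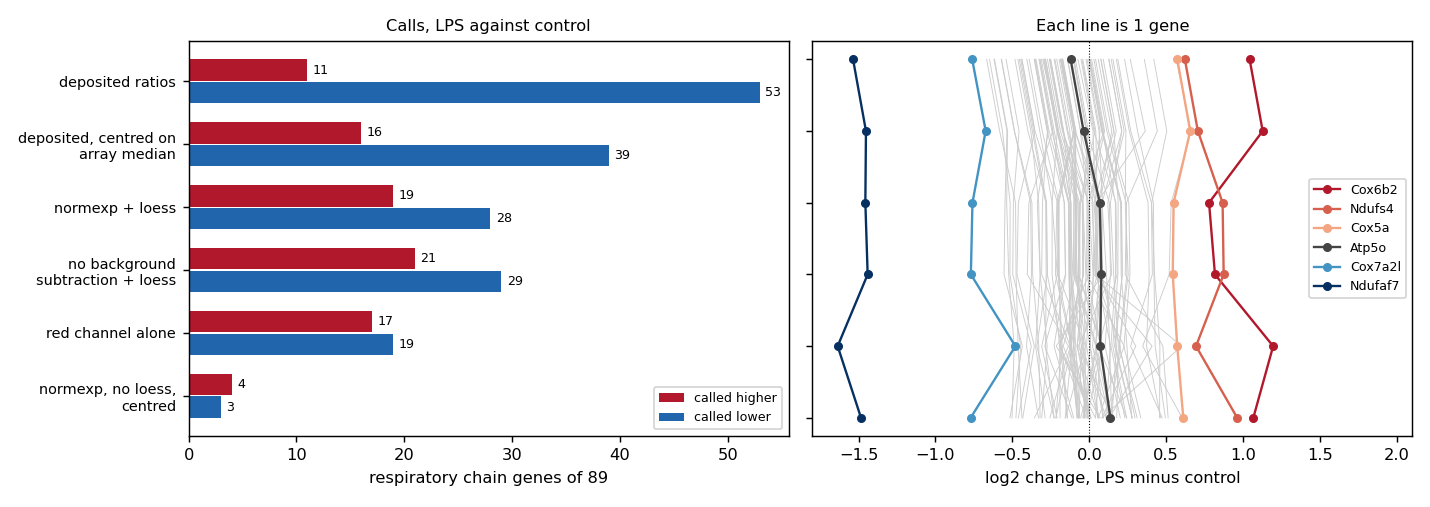
Respiratory chain genes after LPS against control under 6 scalings of the same arrays. Left, bars give the number of the 89 genes called higher (red) and lower (blue), from 11 and 53 in the deposited ratios to 4 and 3 with no dye curve. Right, each line is the log2 change of 1 gene under the same 6 scalings in the same order, with 6 genes coloured. Cox6b2, Ndufs4 and Cox5a stay above 0 and Cox7a2l and Ndufaf7 below it, while Atp5o crosses 0.

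**Figure D2:**
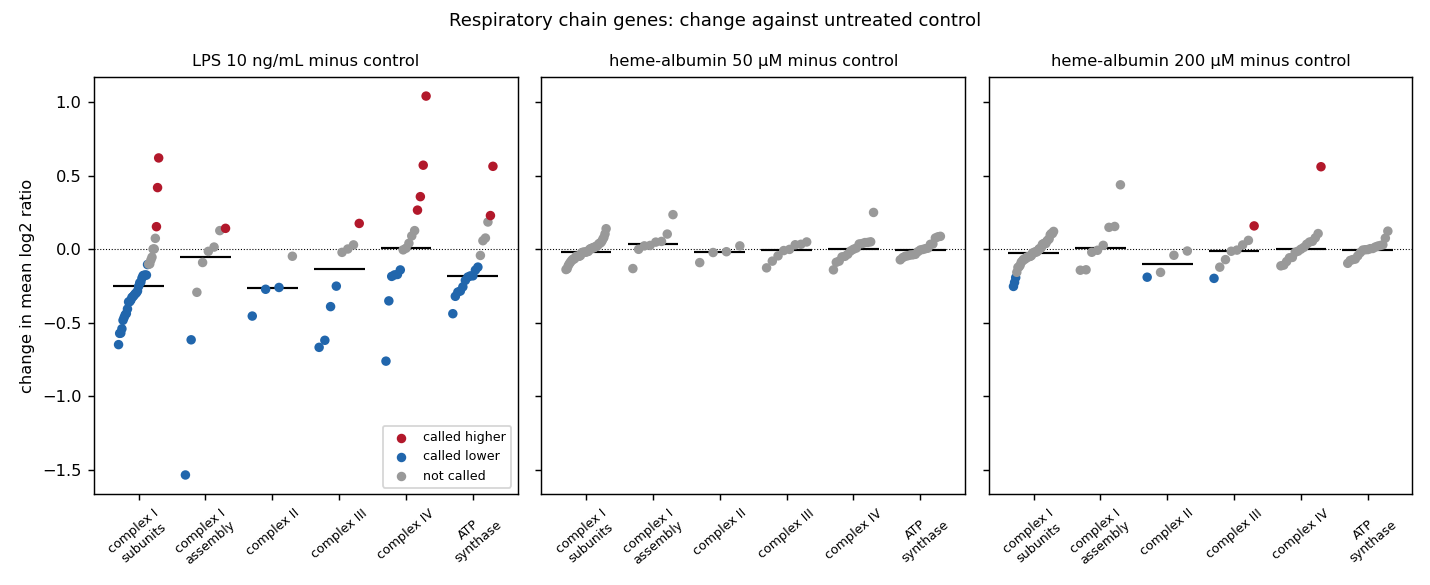
Change in mean log2 ratio against the untreated control for each of the 89 genes, by complex, after LPS (left), at 50 µM (middle) and at 200 µM (right). Each point is 1 gene, coloured by its call, and the black line is the median of its complex. After LPS the points spread from -1.54 to 1.04, and at 50 µM no point is called.

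Complex I, the largest of these lists, carried the largest number of called members. Of its 37 measured subunits, 27 were called lower after LPS (73 percent), 3 higher (8.11 percent) and 7 not, with a median of -0.25. Over all genes 44.3 percent were lower and 34.5 percent higher, a background that also holds for the complexes below. In each of the 5 scalings other than normexp with no dye curve, 10 of the 37 were called lower and 3 higher. All 7 core subunits, which hold the flavin and iron-sulfur centres, lay below 0, and 6 of them were called lower. Ndufs7, the core subunit next to the coenzyme Q site, was -0.28, -0.35, -0.47 and -0.51 on the LPS arrays, against 0.094, 0.035, 0.089 and 0.11 on the control arrays. The groups did not overlap and the change was -0.48 ± 0.054 (adjusted p = 1.1e-06). Ndufs1, which carries iron-sulfur clusters, changed by -0.36 ± 0.043 (adjusted p = 2.3e-06), and Ndufv1, which binds NADH, by -0.30 ± 0.041 (adjusted p = 1.8e-05) with LPS replicate a left out as an outlier spot. Ndufv2 and Ndufs8 changed by -0.20 and -0.18. Of these, Ndufv2 turned positive under 4 of the alternative scalings (0.023 with normexp and loess). Ndufs3, another core subunit, was not called, with -0.10 ± 0.045 (adjusted p = 0.053), and was called higher at 0.13 with normexp and loess. With the slide as a block it was called lower (adjusted p = 0.022).

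Accessory subunits surround that core and stabilise it. Ndufb10, in the membrane arm, was -0.70, -0.69, -0.55 and -0.71 on the LPS arrays, against -0.0074, 0.010, -0.025 and -0.036 on the control arrays. All 4 LPS values lay below all control values, with a change of -0.65 ± 0.047 (adjusted p = 6.7e-09). Ndufb2 fell by 0.57, Ndufb11 by 0.54 and Ndufa6 by 0.46 on the log2 scale. Ndufa4 keeps a complex I name but is known as a subunit of cytochrome c oxidase. It was -0.44, -0.51, -0.54 and -0.67 on the LPS arrays, against 0.044, 0.026, 0.0067 and 0.039 on the control arrays, without overlap, and changed by -0.57 ± 0.049 (adjusted p = 5.3e-08). Its paralogue Ndufa4l2, known from hypoxic cells, was not well above background on all arrays of any group.

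A few complex I genes moved the other way. Ndufs4, an accessory subunit of the matrix arm whose loss causes mitochondrial disease in mouse and human, was 0.76, 0.72, 0.96 and 0.89 on the LPS arrays, against 0.093, 0.22, 0.28 and 0.24 on the control arrays. Every LPS array was higher than every control array, and the change was 0.62 ± 0.061 (adjusted p = 2.4e-07). Ndufab1, the mitochondrial acyl carrier protein that also serves fatty acid synthesis and iron-sulfur cluster assembly, was 0.57, 0.62, 0.49 and 0.48 on the LPS arrays, against 0.14, 0.10, 0.14 and 0.091 on the control arrays. It rose by 0.42 ± 0.068 (adjusted p = 4.6e-05). Ndufa10 rose by 0.15 ± 0.064 (adjusted p = 0.04), with 0.25, 0.19, 0.10 and 0.11 on the LPS arrays, against 0.18, -0.15, 0.027 and -0.027 on the control arrays.

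The assembly factors were divided. Ndufaf7, an arginine methyltransferase needed to build complex I, showed the largest change of any member. Its log2 ratio was -1.75, -1.59, -1.45 and -1.57 on the LPS arrays, against -0.072, -0.14, 0.017 and -0.021 on the control arrays. The change was -1.54 ± 0.064 (adjusted p = 1.3e-11), which puts LPS at 0.345 of the control level, and it stayed between -1.64 and -1.44 under the 5 scalings. Ndufaf2, which helps to add the last module of complex I, fell to -0.62, -0.55, -0.47 and -0.56 on the LPS arrays, against 0.080, 0.022, 0.11 and 0.049 on the control arrays, a change of -0.62 ± 0.055 (adjusted p = 8.2e-08). Ndufaf8 was called higher at 0.14 ± 0.059 (adjusted p = 0.038), and turned to -0.073 in the red channel alone. The other 5 were not called. Among them Ndufaf4 gave 0.077, 0.063, -0.78 and -0.81 on the LPS arrays, against 0.023, -0.10, -0.11 and -0.089 on the control arrays. The LPS arrays of the first scan day lay at a mean of 0.070 and those of the second at -0.80, so that the change was 0.11 within the first day, -0.70 (adjusted p = 0.00029) within the second and -0.29 ± 0.18 (adjusted p = 0.14) over both. A second, dimmer Ndufaf4 probe was called lower at -0.76. Means of the LPS arrays differed by more than 0.3 between scan days for 5 of 89 members, against 0 in each other group. Besides Ndufaf4 these were Uqcrfs1 (-0.17 on the first day, 0.21 on the second), Ndufaf3 (0.33 and -0.0079), Cox6a2 (0.19 and -0.12) and Atp5pb (0.057 and 0.37).

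Complex II has only 4 subunits, all nuclear, and 3 of them were called lower after LPS, with a median of -0.27 for the complex. In the 5 scalings other than normexp with no dye curve, 0 of the 4 were called in every one. Sdha, the flavoprotein that oxidises succinate, was -0.41, -0.43, -0.37 and -0.38 on the LPS arrays, against 0.028, 0.072, 0.037 and 0.088 on the control arrays. No LPS value overlapped with a control value, with a change of -0.45 ± 0.036 (adjusted p = 2.2e-08). The membrane anchors Sdhc and Sdhd changed by -0.27 ± 0.049 (adjusted p = 0.00013) and -0.26 ± 0.046 (adjusted p = 9.9e-05). With normexp and loess both were near 0 and not called, at -0.043 for Sdhc and -0.0025 for Sdhd. Sdha stayed at -0.28 in the red channel alone but was not called there (adjusted p = 0.064). Sdhb, the iron-sulfur subunit, was 0.29, 0.18, 0.055 and 0.018 on the LPS arrays, against 0.11, 0.25, 0.14 and 0.24 on the control arrays, which overlapped, with -0.048 ± 0.060 (adjusted p = 0.47). Its second probe disagreed and was called lower at -0.40.

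Complex III had 4 of 8 subunits lower, 1 higher and a median of -0.14. In each of the 5 scalings other than normexp with no dye curve, 3 of the 8 were called lower and 1 higher. The 3 largest decreases of complex III were in small subunits. Uqcr11 was -0.67, -0.64, -0.67 and -0.85 on the LPS arrays, against 0.0025, -0.027, -0.076 and -0.064 on the control arrays, a change of -0.67 ± 0.052 (adjusted p = 1.7e-08) without overlap. Uqcrh, the hinge protein at the cytochrome c docking site, was -0.44, -0.45, -0.15 and -0.33 on the LPS arrays, against 0.17, 0.31, 0.35 and 0.28 on the control arrays, a change of -0.62 ± 0.065 (adjusted p = 4.4e-07). Uqcr10 changed by -0.39 ± 0.038 (adjusted p = 2.3e-07), and its 3 probes gave -0.39, -0.40 and -0.44. The core proteins parted, since Uqcrc1 changed by -0.25 ± 0.057 (adjusted p = 0.00099) and Uqcrc2 by 0.18 ± 0.051 (adjusted p = 0.0054). Uqcrc2 was higher on all 4 LPS arrays, at 0.11, 0.10, 0.26 and 0.12, than on any control array, at -0.0013, -0.086, 0.034 and -0.052. Uqcrfs1, the Rieske iron-sulfur protein, and Uqcrb were not called, with 0.030 ± 0.091 and 0.0015 ± 0.055.

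Complex IV was the most evenly divided, with 4 of 15 subunits higher, 6 lower and a median of 0.0069. In each of the 5 scalings other than normexp with no dye curve, 2 of the 15 were called higher and 2 lower. Several complex IV subunits come in isoforms made by different tissues, and some isoforms were called where their counterparts were not. Cox6b2, the isoform of Cox6b known from testis, was 1.36, 1.24, 1.03 and 0.97 on the LPS arrays, against 0.17, 0.025, 0.26 and -0.017 on the control arrays. No values overlapped, and the change of 1.04 ± 0.10 (adjusted p = 2.9e-07) equals 2.06-fold. Cox6b1, the common isoform, was not called at 0.091 ± 0.061 (adjusted p = 0.19). Cox4i2, the isoform known from lung and from low oxygen, rose by 0.36 ± 0.076 (adjusted p = 0.00055), with 0.50, 0.46, 0.25 and 0.29 on the LPS arrays, against 0.051, 0.020, 0.082 and -0.087 on the control arrays. Cox4i1, the common form, was -0.13, -0.17, -0.21 and -0.22 on the LPS arrays, against -0.24, -0.16 and -0.16 on control arrays b to d, with control a left out as an outlier spot. Its change was 0.0069, with a 95 percent interval of -0.11 to 0.12. The difference between the changes of such isoforms was not tested. Cox6b2 and Cox4i2 are the 2 members among the dimmest 3189 genes measured, and their common counterparts are brighter. Both were well above background on all 16 arrays.

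Cox5a, a subunit of the enzyme's matrix side, was 0.53, 0.46, 0.20 and 0.23 on the LPS arrays, against -0.13, -0.21, -0.31 and -0.22 on the control arrays. Its change was 0.57 ± 0.070 (adjusted p = 2.6e-06), and within the first and second scan day it was 0.66 and 0.48. Cox6a1 rose by 0.27 ± 0.078 (adjusted p = 0.0083) with LPS replicate a left out, and was 0.030 and not called without background subtraction. The largest decrease in this complex was that of Cox7a2l, a relative of Cox7a2 that joins complexes III and IV in supercomplexes. It was -0.76, -0.79, -0.83 and -0.86 on the LPS arrays, against -0.075, -0.055 and -0.019 on control arrays b to d (control a was left out). The change was -0.76 ± 0.041 (adjusted p = 7.2e-10), and the gene's 3 probes gave -0.76, -0.71 and -0.75. Cox7a1, the isoform of heart and skeletal muscle, fell by 0.35 (adjusted p = 4.1e-06), whereas Cox7a2 itself was not called, at 0.040 ± 0.068.

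In ATP synthase, 11 of 17 subunits were called lower and 2 higher, with a median of -0.18. In each of the 5 scalings other than normexp with no dye curve, 2 of the 17 were called lower and 1 higher. Atp5b encodes the catalytic beta subunit of the F1 head. It was 0.67, 0.47 and 0.66 on LPS arrays b to d, where a was left out as an outlier spot, against 0.21, -0.021, -0.057 and 0.020 on the control arrays. The groups did not overlap, and Atp5b rose by 0.56 ± 0.075 (adjusted p = 9.5e-06). It was not called in the red channel alone, at 0.35 (adjusted p = 0.098). The alpha subunit Atp5a1, its partner in the head, was not called at 0.076 ± 0.070 (adjusted p = 0.33). Atp5md, a small membrane subunit, rose by 0.23 ± 0.069 (adjusted p = 0.0074). The c subunit of the membrane ring has 3 genes, of which Atp5g2 was -0.41, -0.46, -0.32 and -0.39 on the LPS arrays, against 0.0077, 0.020, 0.067 and 0.077 on the control arrays and fell by 0.44 (adjusted p = 3.2e-07). Atp5g1 and Atp5g3 changed by -0.14 ± 0.051 (adjusted p = 0.02) and 0.058 ± 0.060 (adjusted p = 0.39), the last with control a left out. The reference lists 19 pseudogenes with names of this set, and cross-hybridisation between near-identical copies was not tested. Atp5d, of the central stalk, changed by -0.32 ± 0.064 (adjusted p = 0.00034).

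**Figure D3:**
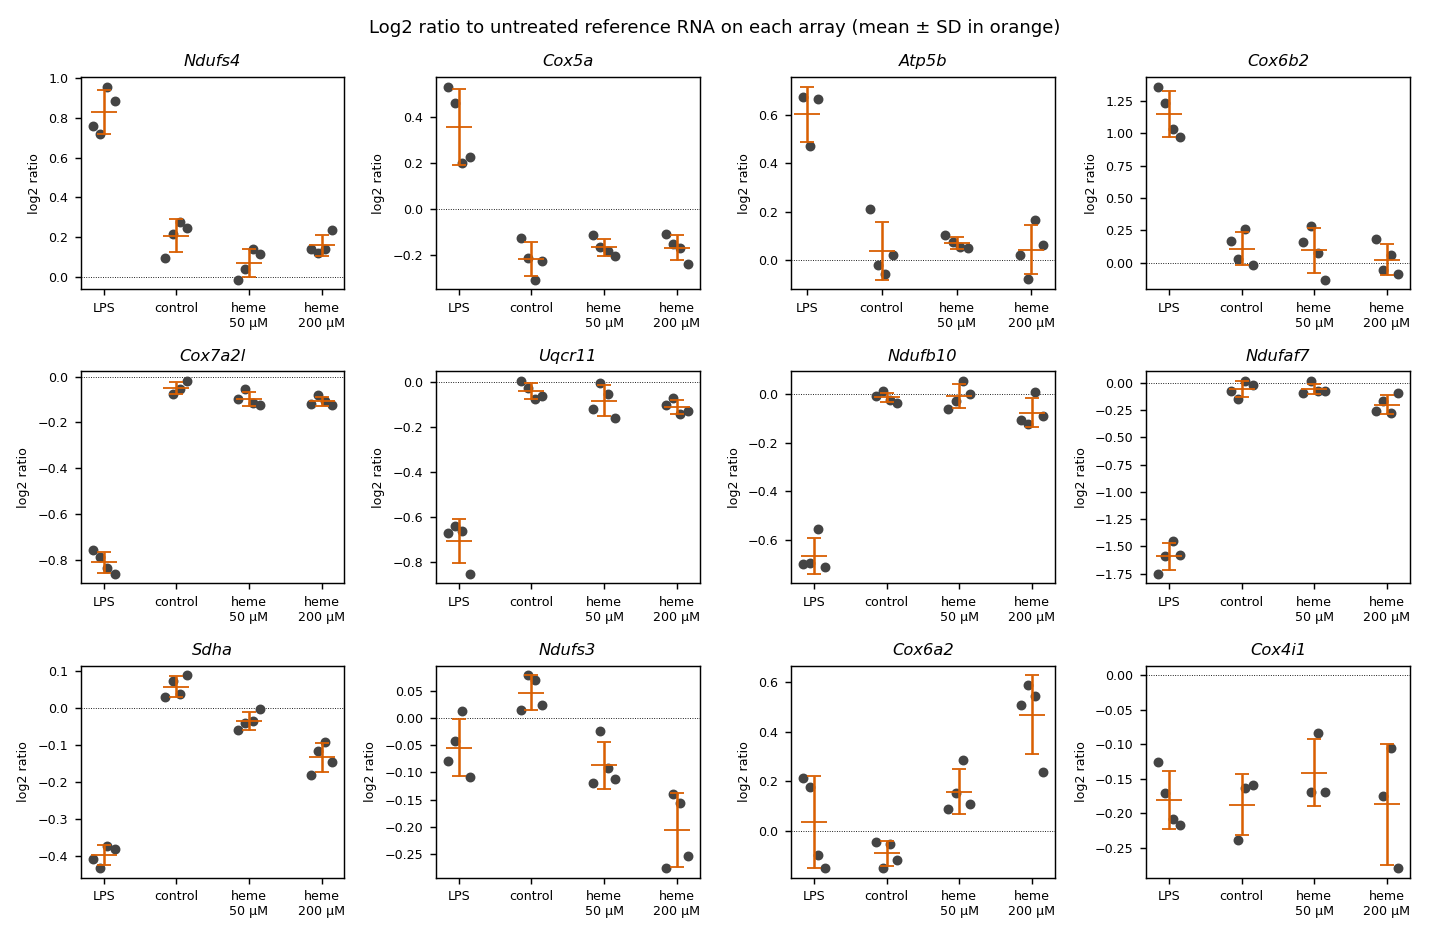
Log2 ratio of sample to untreated reference RNA for 12 genes on each array, with LPS, control, heme-albumin 50 µM and heme-albumin 200 µM from left to right. Each dark point is 1 array (4 per group, fewer where an outlier spot was left out), and orange marks the mean and SD. LPS separates from the other groups in the 4 genes of the upper row, where it is higher, and in the 4 of the middle row, where it is lower. In the lower row Sdha is lowest after LPS, Ndufs3 is lowest and Cox6a2 highest at 200 µM, and the groups of Cox4i1 overlap.

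Promoters of nuclear respiratory genes are known for sites of the transcription factors NRF-1 and NRF-2 (GABP, of the ETS family). The searched set was the RefSeq promoters of build GRCm38.p6, which matched 74 of the 89 members by symbol. The window runs from 250 bases before to 50 after the start. Both strands were searched for the palindromic NRF-1 consensus (the block GCGC on either side of 2 free bases), CGGAAG (ETS) and CCAAT. The NRF-1 motif was in 21 of the 74 members, or 28.4 percent, against 14.1 percent of 10250 measured genes and 6.2 percent of all 32851 promoters. The ETS motif was in 34, or 45.9 percent, against 33.9 and 16.9 percent. CCAAT was in 33, or 44.6 percent, against 43.2 and 37.4 percent. Of the members called lower after LPS, 13 of 47 held the NRF-1 motif and 18 the ETS motif, and of those called higher, 2 of 9 and 4. Promoters of 4 members are shown, because they cover both directions of change: Sdha, called lower after LPS and at 200 µM, Uqcr11 and Ndufaf7, called lower after LPS, and Cox5a, called higher. Capitals mark the motifs, and each sequence is read in the direction of the gene. Sdha lies at chr13:74350191-74350490 (minus strand), Uqcr11 at chr10:80406772-80407071 (minus strand), Ndufaf7 at chr17:78936885-78937184 (plus strand) and Cox5a at chr9:57520982-57521281 (plus strand).
Sdha: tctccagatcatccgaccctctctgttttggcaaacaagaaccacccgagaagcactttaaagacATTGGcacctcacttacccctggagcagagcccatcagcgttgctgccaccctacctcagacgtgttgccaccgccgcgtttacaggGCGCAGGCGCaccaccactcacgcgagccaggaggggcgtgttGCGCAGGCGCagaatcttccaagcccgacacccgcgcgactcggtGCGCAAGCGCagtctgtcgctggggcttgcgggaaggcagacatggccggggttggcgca
Uqcr11: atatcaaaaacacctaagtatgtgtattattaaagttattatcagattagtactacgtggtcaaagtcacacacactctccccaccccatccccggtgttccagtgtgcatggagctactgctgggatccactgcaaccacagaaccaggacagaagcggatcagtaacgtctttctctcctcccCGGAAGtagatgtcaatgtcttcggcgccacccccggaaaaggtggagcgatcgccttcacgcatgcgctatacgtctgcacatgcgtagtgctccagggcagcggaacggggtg
Ndufaf7: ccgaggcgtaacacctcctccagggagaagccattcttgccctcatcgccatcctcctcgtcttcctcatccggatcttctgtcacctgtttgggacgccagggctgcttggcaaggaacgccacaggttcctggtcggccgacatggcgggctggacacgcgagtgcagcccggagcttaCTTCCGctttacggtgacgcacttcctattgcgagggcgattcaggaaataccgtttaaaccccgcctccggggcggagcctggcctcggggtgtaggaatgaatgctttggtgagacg
Cox5a: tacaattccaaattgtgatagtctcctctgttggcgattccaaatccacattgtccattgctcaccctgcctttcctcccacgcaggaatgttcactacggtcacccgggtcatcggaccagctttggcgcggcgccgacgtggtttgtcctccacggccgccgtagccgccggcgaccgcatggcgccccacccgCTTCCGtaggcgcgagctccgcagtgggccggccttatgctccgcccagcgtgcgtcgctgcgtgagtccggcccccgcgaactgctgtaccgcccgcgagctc
The Sdha window holds 3 matches of the NRF-1 motif and 1 CCAAT on the opposite strand. Uqcr11, Ndufaf7 and Cox5a each hold 1 ETS match, and Cox5a moved opposite to the other pair. Windows of Ndufs4 and Cox7a2l held no match of any of these motifs.

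The members are bright on these arrays: 71 of 89 lie above the 75th percentile of genes. The members were therefore set beside genes of like signal. In the brightest band, the top 1276 genes, the 48 members had a median LPS change of -0.19, against 0.018 for all genes there, and 66.7 percent of them were called lower, against 39.9 percent. Among the next 1914 genes, the 23 members had -0.25, against -0.21 for all, and 69.6 percent lower, against 53 percent. None of the 8 members below the median brightness was called lower. Of all genes, 34.7 percent were called lower among the dimmest 3189, which held 2 members, and 46.2 percent among the next 3190, which held 6. The bands were compared in the deposited ratios only. Without regard to brightness, the share of members called lower exceeded that of all genes in these ratios and after centring. It was below that of all genes in the other scalings.

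At 200 µM heme-albumin, 5 of the 89 members were called lower and 2 higher, against 12 percent lower and 10.8 percent higher over all genes tested. The median member changed by -0.013, against -0.022 for all genes, and no member reached 2-fold, as 2.05 percent of all genes did upward and 0.98 percent downward. Arrays at 200 µM and control arrays did not overlap for 19 of 89 members, 14 lower (15.7 percent) and 5 higher (5.62 percent), against 19.8 percent lower and 15.9 percent higher over all genes. Cox6a2, the isoform of a complex IV subunit found in heart and skeletal muscle, moved most. Its log2 ratio was -0.046, -0.15, -0.054 and -0.12 on the control arrays, 0.087, 0.15, 0.29 and 0.11 at 50 µM and 0.51, 0.59, 0.55 and 0.24 at 200 µM. Every array at 200 µM lay above every control array, and the change was 0.56 ± 0.092 (adjusted p = 0.00043). It was 0.65 and 0.48 within the first and second scan day, and 0.52 to 0.64 with any 1 array left out. In the red channel alone it was 0.57 but not called (adjusted p = 0.36). At 50 µM the arrays also lay above the controls, with 0.25 ± 0.092 (adjusted p = 0.21), and the step between the doses was 0.31 ± 0.092 (adjusted p = 0.054), so neither was called. With the slide as a block the step between doses was called (adjusted p = 0.037). After LPS, Cox6a2 was 0.21, 0.18, -0.10 and -0.15, with both first-day arrays above both second-day arrays. Its common counterpart Cox6a1 was not called at 200 µM, at 0.034 ± 0.078 with array a at 200 µM left out. Of 5 striated muscle markers, Myh7 and Tnnt2 were measured and neither was called at 200 µM, with Tnnt2 not well above background on any control or 200 µM array.

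The decreases called at 200 µM were in subunits of complexes I, II and III. Dimmer second probes of Sdhb and Ndufv3 were also called lower, at -0.30 and -0.38. The brightest probes of these genes were not called, at -0.16 and -0.12. Ndufs3, a core subunit of complex I, was -0.28, -0.14, -0.16 and -0.25 on the 200 µM arrays, against 0.014, 0.079, 0.070 and 0.024 on the control arrays. The groups did not overlap, and the change was -0.25 ± 0.045 (adjusted p = 9e-04). Sdha was -0.18, -0.12, -0.092 and -0.15 on the 200 µM arrays, against 0.028, 0.072, 0.037 and 0.088 on the control arrays, again without overlap, and changed by -0.19 ± 0.036 (adjusted p = 0.0015). Ndufa9 changed by -0.19 ± 0.051 (adjusted p = 0.014), Ndufab1 by -0.23 ± 0.068 (adjusted p = 0.026) and Uqcrh by -0.20 ± 0.065 (adjusted p = 0.039). Uqcrq, a small subunit of complex III, was the other member called higher, at 0.16 ± 0.054 (adjusted p = 0.047), and its second probe was called higher at 0.27. Cox6a2, Ndufs3, Sdha and Ndufa9 kept their call with each of the 8 arrays left out in turn. Ndufab1 kept it in 3, Uqcrh in 2 and Uqcrq in 1 of the 8. Ndufab1 was -0.36 within the first scan day and -0.087 within the second. None of the 7 was called in the red channel alone, where adjusted p ran from 0.067 for Ndufa9 to 0.41 for Sdha. Their changes there kept their direction, with 0.57 for Cox6a2, 0.15 for Uqcrq, -0.21 for Ndufs3, -0.20 for Sdha, -0.46 for Ndufa9, -0.24 for Ndufab1 and -0.15 for Uqcrh. No ATP synthase subunit and no assembly factor was called at 200 µM in the main fit. There Ndufaf4 had 0.25, 0.24, 0.61 and 0.37 against 0.023, -0.10, -0.11 and -0.089 in the control, a change of 0.44 ± 0.18 (adjusted p = 0.092). Ndufaf4 was called higher with only the 2 groups in the fit (adjusted p = 0.0054) and without background subtraction (adjusted p = 0.021). Within the first and second scan day it was also called, at 0.29 and 0.59 (adjusted p = 0.022 and 0.004). It was not called with normexp and loess, in the red channel alone or with any 1 array left out.

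At 50 µM, limma called 0 of 89 members in either direction, against 2.07 percent higher and 1.45 percent lower over all genes. At an unadjusted p under 0.05, 7 members differed (7.87 percent), 2 higher and 5 lower, against 13.6 percent of all genes, and the model without moderation called 0 higher and 2 lower. The 95 percent intervals, each for 1 gene in the deposited ratios, show how large a change could have been missed there. They do not cover a shift set by the scaling. With normexp and no dye curve the members' median was -0.11, against -0.0094 for all genes. There 8 of 89 members lay above the median of all genes, against 45 to 51 in the other 4 alternatives. For 88 of 89 members the whole interval lay within 0.5 of 0 on the log2 scale, and for all 89 within 2-fold, between -0.37 and 0.61. Between 200 and 50 µM limma likewise called 0 members, with 4.2 percent higher and 3.41 percent lower over all genes. There 7 members (7.87 percent) had an unadjusted p under 0.05, 2 higher and 5 lower, against 19.9 percent of all genes, and the model without moderation called 0 higher and 1 lower. Sdha held 0.028, 0.072, 0.037 and 0.088 in the control, -0.061, -0.040, -0.035 and -0.0031 at 50 µM and -0.18, -0.12, -0.092 and -0.15 at 200 µM. These arrays did not overlap between any of the groups, but the change at 50 µM, -0.091 ± 0.036 (adjusted p = 0.26), and the step between doses, -0.10 ± 0.036 (adjusted p = 0.13), were not called. Ndufs3 showed the same order, with -0.13 ± 0.045 (adjusted p = 0.16) at 50 µM.

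Set directly against each other, 200 µM heme-albumin and LPS differed in most members, as they did in most genes measured. Of the 89, 50 were called higher (56.2 percent) and 13 lower (14.6 percent) at 200 µM than after LPS. Over all genes the shares were 44.6 and 34.7 percent. The median member was 0.19 higher at 200 µM, against 0.10 for all genes. Ndufaf7 was higher at 200 µM than after LPS by 1.39 ± 0.064 (adjusted p = 4.3e-11) and Cox7a2l by 0.70 ± 0.038 (adjusted p = 8e-10). Cox6b2 differed by -1.13 ± 0.10, Ndufs4 by -0.67 and Ndufab1 by -0.65. Ndufab1 had been called higher after LPS and lower at 200 µM, each against the shared control, with -0.20, -0.29, 0.031 and 0.029 at 200 µM and 0.57, 0.62, 0.49 and 0.48 after LPS. Ndufs3 was the reverse of most complex I subunits, since it was lower at 200 µM than after LPS, with a change of -0.15 (adjusted p = 0.0065). The share of members called higher was above that of all genes in the deposited ratios and after centring (51.7 against 41.8 percent), and below it in the other 4 scalings, with 34.8 against 39.9 percent with normexp and loess. In each of the 5 scalings other than normexp with no dye curve, 17 members were called higher and 9 lower. The same count over all genes was not made.

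**Figure D4:**
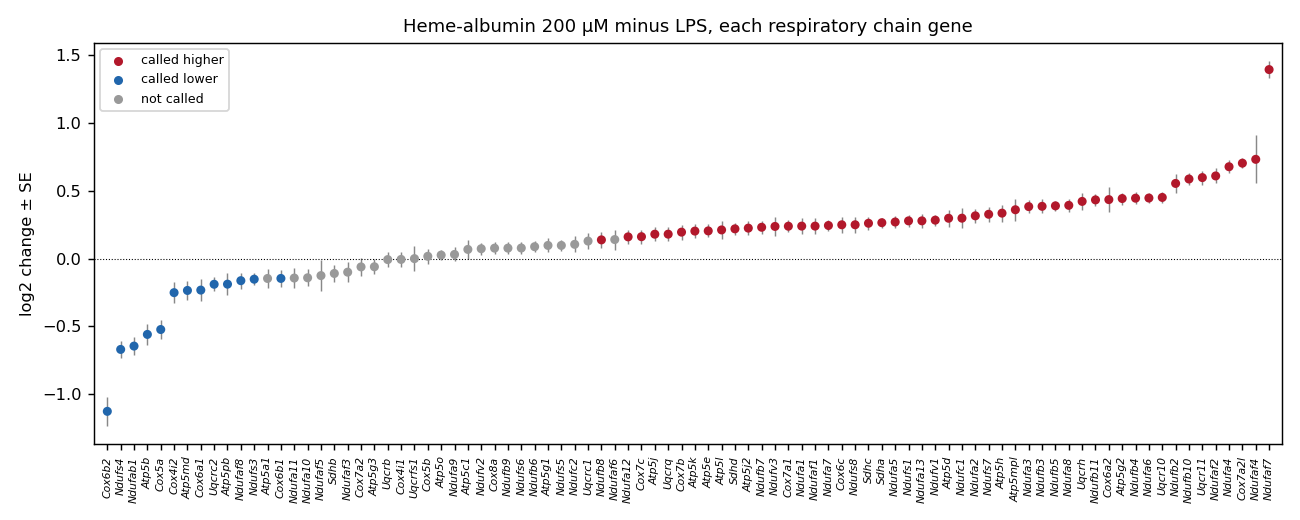
Difference in mean log2 ratio between heme-albumin at 200 µM and LPS (200 µM minus LPS) for 88 of the 89 genes, ordered by size, with the standard error as a bar. Red points were called higher at 200 µM (50), blue points lower (13) and grey points neither (25), from Cox6b2 at -1.13 on the left to Ndufaf7 at 1.39 on the right.

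Genes that work with the respiratory chain were read as whole lists, in the deposited ratios only. How the counts and medians of these lists depend on the scaling was not tested. After LPS, cytochrome c and the coenzyme Q pathway, the mobile carriers between the complexes, had 7 of 14 genes higher and 7 lower. Cycs, cytochrome c itself, rose by 2.55 ± 0.14 (adjusted p = 2.4e-10). Coq10a and Coq8a, which serve coenzyme Q function and synthesis, changed by -1.68 and -1.48, and Coq10b by 1.25. Among 39 assembly factors outside the Nduf family, 12 were higher and 20 lower. Sco1, a copper chaperone of complex IV, rose by 2.58 ± 0.23 (adjusted p = 6.5e-08), and Ttc19, Coa5 and Cox18 by 1.69, 1.65 and 1.63, while Bcs1l, which inserts the Rieske protein into complex III, changed by -0.99. The first 4 exceed the change of Cox6b2, the structural subunit that rose most.

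Regulators of mitochondrial biogenesis had 12 of 17 genes lower and 3 higher, with a median of -0.44. Polg2 of the mitochondrial DNA polymerase changed by -1.41 ± 0.050 (adjusted p = 2.2e-12), and the transcription factor Tfb2m, the RNA polymerase Polrmt and the helicase Twnk by -1.28, -1.16 and -0.95. The mitochondrial ribosome had 43 of 77 genes lower and 16 higher (median -0.27), from Mrps26 at -1.20 to Mrpl52 at 1.92. Pyruvate dehydrogenase and the TCA cycle had 11 of 18 lower and 3 higher (median -0.19), and the fumarase Fh1 and the isocitrate dehydrogenase subunit Idh3g changed by -1.10 and -1.01. Carriers and channels had 7 of 12 lower and 4 higher. Of the 6 superoxide and peroxide enzymes, 2 were higher and 3 lower: Sod2, the manganese superoxide dismutase of the matrix, rose by 4.36 ± 0.094 (adjusted p = 5.1e-14) and Prdx5 by 1.59, while Txnrd2 and Gpx4 changed by -1.29 and -1.03. Glycolysis, listed for comparison, had 15 of 18 higher and 1 lower (median 0.72), led by the regulator Pfkfb3 at 4.40 and the glucose transporter Slc2a1 at 2.93. Over all genes, 44.3 percent were lower and 34.5 percent higher.

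**Figure D5:**
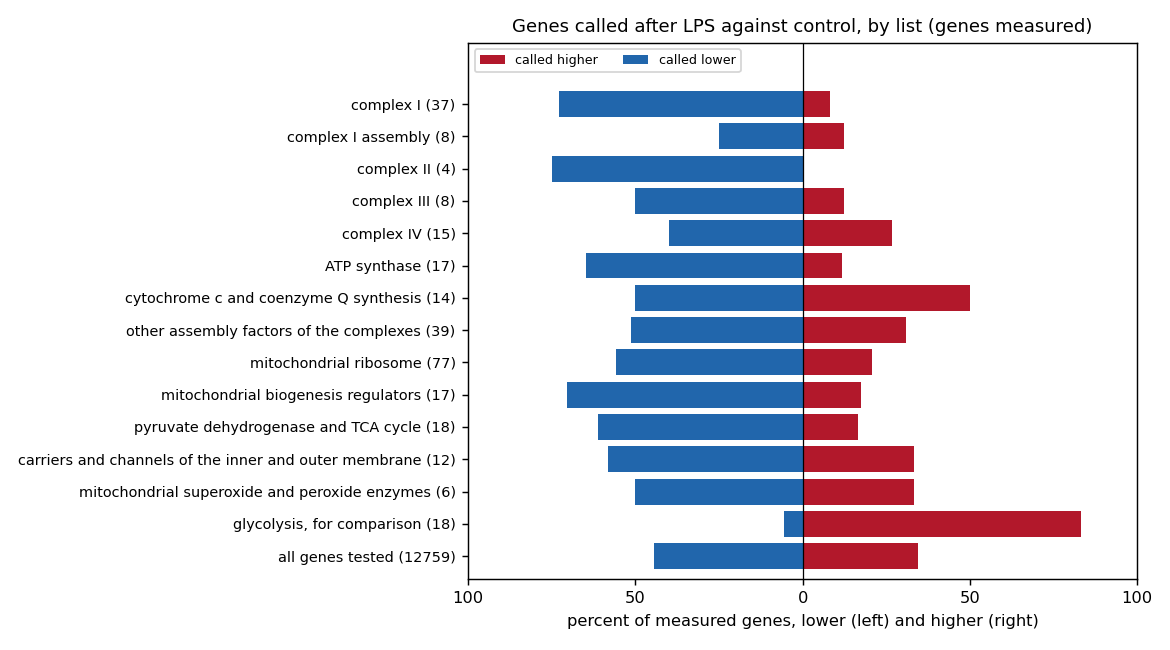
Percent of measured genes called after LPS against control in the deposited ratios, lower to the left and higher to the right. Bars are given for each complex, each related list and all 12759 genes, with the number measured in parentheses. Complex I and complex II extend furthest to the left among the complexes (73 and 75 percent lower), and glycolysis furthest to the right (83.3 percent higher).

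At 200 µM, where 12 percent of all genes were lower and 10.8 percent higher, the same lists were read again in the deposited ratios. The biogenesis regulators had 1 of 17 called (Polg2, -0.22), the mitochondrial ribosome 8 of 77 lower (10.4 percent) and 2 higher, and the TCA list 4 of 18 lower (22.2 percent) and 2 higher. Citrate synthase (Cs) and Ogdh were the genes that rose among the TCA genes, by 0.33 ± 0.050 (adjusted p = 2e-04) and 0.30 ± 0.048 (adjusted p = 0.00037). The coenzyme Q list had 5 of 14 lower (35.7 percent) and 1 higher, with Coq8a at -0.50, Coq9 at -0.26 and Coq7 at 0.19. The other assembly factors had 4 of 39 lower (10.3 percent) and 2 higher, led by Nubpl at 0.34. Sod2 rose by 1.83 ± 0.087 (adjusted p = 7.8e-09), the citrate carrier Slc25a1 by 0.59 ± 0.052 (adjusted p = 1.3e-06) and Slc2a1 by 1.13 ± 0.078 (adjusted p = 1.1e-07). Sod2, Slc25a1 and Slc2a1 were also the only genes of these pathway lists called at 50 µM, where they rose by 0.62, 0.25 and 0.48.

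Markers of macrophages and of other cell types moved with LPS. Of the 10 macrophage markers measured, 6 were called higher and 4 lower, from Mertk at -0.97 to Marco at 3.86. All 3 endothelial markers measured of 4 were called higher (Pecam1, Cdh5 and Kdr), as were S100a8 (1.56) and S100a9 (0.58) of the 3 neutrophil markers measured, while the third, Elane, was called lower at -0.38. Both muscle markers measured, Myh7 and Tnnt2, were called higher. Of the 2 fibroblast markers measured Dcn was called higher, and Col1a2 was not called at -0.23. Dcn and Tnnt2 were well above background on all 4 LPS arrays and on 0 of the 4 control arrays. Both passed the filter only through the LPS group, so the filter itself favoured their call as higher. Their calls add nothing beyond that detection. Of the dendritic cell markers Zbtb46 was called higher at 0.96 and Siglech was not called at -0.12, and neither were Hba-a1 (erythroid) and Cd3e (lymphocyte). Of 5 stem cell markers only Nanog was measured, and it was not called. No mast cell marker passed. At 200 µM no marker of fibroblasts, endothelium or muscle was called, and of the neutrophil markers Elane was called higher at 0.38. Of the macrophage markers 3 were called higher there and 2 lower, from Fcgr1 at -1.58 to Marco at 1.46. The part of these genes' source cells in the results for the respiratory chain was not tested.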

How the data were processed

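Log10 ratios of red to green (Cy5 sample over Cy3 untreated reference) were used as deposited. Per the file headers and the submitters' processing notes they come from Agilent Feature Extraction 10.7.3.1 with linear-lowess dye normalization, and per the labels the authors normalized no further and filtered for 2-fold after an ANOVA. Red and green intensity values per spot, also as deposited per the file headers, served the alternatives. Ratios were converted to log2, outlier spots and control spots were left out, and spots of a probe averaged. Of 39429 probes, 27234 were named through RefSeq transcript accessions (GRCm38.p6), giving 20659 symbols. A probe was kept when red was well above background on all 4 arrays of at least 1 group, and the brightest probe stood for its gene. Red was above background for 49.94 to 59.42 percent of probes per array. The number of arrays limits precision.

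Changes were tested with limma (version 3.58.1, R version 4.3.3), fitting 1 mean per group over 16 arrays by lmFit and eBayes, with Benjamini-Hochberg adjustment over 12759 genes, called at an adjusted p under 0.05. The procedure was tested on simulated data. Values of 8 members lack 14 arrays' spots, all of replicate a, removed as outliers. Replicate letter marks the slide, per the file headers, and a tag shared by all groups, per the sample titles. The main fit does not use this matching, and the replicate block does. Same-letter arrays deviated together, with a correlation of deviations of 0.166 to 0.33 between 200 µM and control, 0.219 to 0.297 between 50 µM and control, 0.367 to 0.502 between doses and 0.0962 to 0.114 between LPS and control. Members and gene lists were chosen with earlier results of these data known. Named genes are, per complex or list and comparison with the control, up to 4 genes, called ones first and then by size of change, all past 2-fold, and a fixed set (the complex II and complex I core subunits, Ndufa4, isoforms of Cox4, Cox6a and Cox7a). Atp5a1, Atp5g1, Atp5g3, Uqcrb, Uqcrc2, Ndufa6, Ndufa8, Ndufb4, Ndufb5 and Ndufb11 were added after their values were seen. Alternatives were other background and dye corrections, filters, blocks, scan days, fits and arrays left out. Figures were drawn with matplotlib 3.10.9. One member is not reported by name here.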

Additional observations from a re-analysis of the deposited data

Results flagged for a closer look

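Among 51 named members, 194 sets of 4 arrays (1 gene in 1 group, with no array left out) were examined, and in 14 of them the gap of 1 array to the nearest other passed the 95 percent critical value of Dixon for 4 values. Chance alone marks about 1 in 20 such sets. All values are log2 ratios.

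After LPS, replicate c of Ndufb10 was -0.55 where the others lay between -0.71 and -0.69. Replicate c of Sdhc was -0.31 where the others lay between -0.39 and -0.39. Replicate d of Uqcr11 was -0.85 where the others lay between -0.67 and -0.64. These LPS values stayed below all control values of their genes.

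At 200 µM, replicate d of Ndufs4 was 0.24, against 0.12 to 0.14 in the others, and replicate d of Ndufs8 was -0.0044, against 0.13 to 0.15. At 50 µM, replicate b stood apart for Ndufaf7 (0.014, others -0.088 to -0.075), Uqcr10 (0.19, others 0.12 to 0.13) and Uqcrfs1 (-0.017, others 0.060 to 0.068). Replicate c stood apart for Sdhc (0.023, others -0.11 to -0.10).

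In the control, replicate a of Ndufaf4 was 0.023, against -0.11 to -0.089 in the others, and replicate b of Ndufaf5 was -0.28, against 0.015 to 0.075. Replicate c was high for Ndufv2 (0.20, others 0.055 to 0.075) and Uqcrc1 (0.064, others 0.0066 to 0.0099), and replicate d was low for Ndufv1 (-0.11, others -0.054 to -0.049).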

How the results depend on the processing

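The number of members called higher and lower after LPS (11 and 53) was 19 and 28 with normexp and loess, 21 and 29 without background subtraction, 4 and 3 without loess, 17 and 19 in the red channel alone, 16 and 39 after centring, and 1 and 1 at 2-fold. Leaving out 1 array gave 9 to 12 higher and 50 to 54 lower. The other alternatives stayed within 1.5 times. At 200 µM (2 higher, 5 lower) the counts were 1 and 3 with normexp, 4 higher without background subtraction, 1 and 0 without loess and 0 and 0 in the red channel alone and at 2-fold. They were 5 higher on the second scan day, 2 lower on the first, 4 higher with only the 2 groups in the fit and 11 lower without moderation, and 1 to 2 higher and 3 to 4 lower with 1 array left out. Over all genes, 5.13 percent were called higher and 5.12 percent lower at 200 µM with normexp, and 12.4 and 10 percent without background subtraction. These shares were 1.65 and 0.854 percent without loess and 5.99 and 5.71 percent in the red channel alone. For scan days, blocks, fits and arrays left out, shares over all genes were not counted. At 50 µM (0 and 0), fitting only the 2 groups gave 2 higher and 1 lower, and no moderation 2 lower. Leaving out 1 array gave 0 in both directions. Between doses (0 and 0) there was 1 higher without background subtraction, after centring, with probes above background on all 16 arrays, on the first scan day alone, with only the 2 groups and with a scan day block. There was 1 lower with no filter and 1 lower without moderation, and 0 to 1 higher and 0 lower with 1 array left out. Between 200 µM and LPS (50 higher, 13 lower) the counts were 31 higher with normexp, 5 and 4 without loess, 22 higher in the red channel, 8 lower with only the 2 groups and 1 and 1 at 2-fold, and 49 to 57 and 10 to 13 with 1 array left out.

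With the replicate block (slide) the counts were 12 higher and 54 lower after LPS, 2 and 5 at 200 µM, 0 and 0 at 50 µM, 1 and 0 between doses and 52 and 14 between 200 µM and LPS. The block changed the call of Atp5pb (adjusted p = 0.0034) and Ndufs3 after LPS, Cox6a2 between doses and 5 members between 200 µM and LPS (Atp5a1, Cox6a1, Ndufa10, Ndufs5 and Uqcrc1).

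Among the genes followed by name, signs that turned after LPS were those of Atp5j (0.0082 without loess), Atp5o (0.068 with normexp, 0.078 without background subtraction, 0.14 without loess, 0.071 in red alone), Cox10 (-0.0092 in red alone), Ndufa9 (0.040 without loess), Ndufaf8 (-0.073 in red alone) and Ndufs3 (0.13 with normexp, 0.14 without background subtraction). The same held for Ndufv2 (0.023, 0.027, 0.090 and 0.0061 under those 4 settings), Ogdh (0.050 without loess), Sdhc (0.012 without loess), Sdhd (0.0060 without background subtraction, 0.060 without loess) and Uqcrq (0.18 in red alone). Of the 15 members called lower after LPS with a value above 0 in at least 1 scaling, the other 9 were Atp5g1, Atp5k, Cox6c, Cox7b, Cox7c, Ndufa1, Ndufa12, Ndufc1 and Ndufs6. Their highest values in any scaling lay between 0.0059 (Ndufa1) and 0.23 (Atp5g1). At 200 µM the sign of Slc25a10 turned (0.048 without loess). The cause was not tested. Position on the slide and incubation time cannot be told apart from treatment.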
